A study of Mus musculus with 8 samples.

Results

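The genes that make, take up, store and export cholesterol were followed in the whole pregnant uterus at day 8 of gestation, in females given diphtheria toxin (DT) or PBS. The set held 34 genes, chosen by symbol through their Ensembl IDs, of 49585 genes in the count tables. All 34 were among the 22693 genes that passed the filter on low counts and were tested. The mice were 8-week-old Foxp3DTR females, whose Foxp3 locus carries a diphtheria toxin receptor, so that the toxin acts on Foxp3-expressing cells, chiefly regulatory T cells. Their mates were BALB/c males, so the pregnancies were allogeneic. The DT group (4 libraries, replicates 1, 3, 4 and 5) received 1 µg of toxin into the peritoneum on days 1, 3, 5 and 7, and the PBS group (4 libraries, replicates 1, 2, 4 and 6) received vehicle. Both groups carried the receptor allele, and no toxin-treated female without it was included. The entire uterus with its fetal tissues was processed, so each library mixes decidua, myometrium, blood vessels, immune cells and conceptus.

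Cells build cholesterol from acetyl-CoA through mevalonate, isoprenoid units and squalene, which is closed to lanosterol and trimmed to cholesterol. When membranes of the endoplasmic reticulum run low in sterol, SCAP escorts the transcription factor SREBP2 to the Golgi, where it is cleaved and then switches on these enzymes and uptake genes. INSIG proteins hold SCAP back when sterol is plentiful. Oxysterols, which build up with cholesterol, activate the liver X receptors (LXRs), which turn on exporters such as ABCA1 and ABCG1. In the pregnant uterus cholesterol feeds membranes of growing decidua and embryo, and it is the precursor of progesterone and other steroids.

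Total counts ranged from 94794512 to 109847604 per library, and each member had at least 441 reads in every library. Values are CPM, reads of a gene scaled to a common library size, on library sizes scaled by TMM. Foxp3 did not separate the groups (4.36 to 5.72 CPM over the 8 libraries, edgeR adjusted p = 0.595), so it gave no check of the labels. Its exons overlap other annotated genes, and 18.9% of the short sequence windows of its transcripts occur in another gene. The reads counted for Foxp3 could therefore not all be placed with certainty. Each library is named by its label, DT-labelled or PBS-labelled. PBS-labelled replicates 1 and 2 had the most RNA of the conceptus and of some maternal cell types. The summed level of 8 yolk sac endoderm markers was 92.4 and 222 CPM there, against 11.9 to 30.8 CPM elsewhere. The 6 trophoblast markers summed to 156 and 416 CPM there, against 8 to 41.8 CPM. The 3 globins of primitive red cells, each at 0 in some library, summed to 40.9 and 308 CPM there, and to 0 to 0.495 CPM in the other 6. Of these conceptus markers edgeR called 0, while DESeq2 called 2 yolk sac and 1 trophoblast marker. Of all genes DESeq2 called 1.04% higher and 0.278% lower. The 4 endothelial markers also summed highest there, to 1177 and 1415 CPM against 605 to 926 CPM elsewhere. These were the 2 highest libraries for 3 of the 4, all but Kdr. Of the 6 T cell markers edgeR called 3 higher with all 8 libraries, against 0.322% of all genes. The 6 summed to 12.5 to 14.9 CPM under the DT label and 7.67 to 7.86 CPM under the PBS label. DT-labelled replicate 1 stood apart by its low decidual markers, of which 4 of 5 were lowest there, against 27.6% of all genes. They summed to 2120 CPM there, to 9264 and 10897 CPM for PBS-labelled replicates 1 and 2, and to 5075 to 9071 CPM for the other 5 libraries. Of these sums Prl8a2 gave 7066 and 8960 CPM in PBS-labelled replicates 1 and 2. Those were the 2 highest libraries for only 1 of the 5 decidual markers. Bmp2 was lower there (592 and 523 CPM) than in PBS-labelled replicates 4 and 6 (846 and 838 CPM). Of 5 myometrial markers, 4 were highest in DT-labelled replicate 1, against 27.2% of all genes, and 1, Des, was lowest there. Myh11 measured 1097 CPM in that library and 341 to 849 CPM elsewhere. That library was also the highest for 5 of 9 macrophage markers. The titles of PBS-labelled replicates 1 and 2 also share the ending S1, and those of replicates 4 and 6 share S2. The DT titles end in S3 or S4, so each ending occurs in 1 treatment only and no comparison within an ending was possible. What the endings stand for is not given in the sources used here. Fold changes are also given without PBS-labelled replicates 1 and 2, a choice made after the data were seen.

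The promoters of 5 synthesis genes are shown because in these genes every DT-labelled library lay below every PBS-labelled library. Each run is the 250 bases before a RefSeq transcription start (build GRCm38.p6), 5′ to 3′ on the gene's strand. Capitals mark the short sterol regulatory element TCACNCCA, the NF-Y box CCAAT and the GC box GGGCGG, on either strand.
Hmgcs1: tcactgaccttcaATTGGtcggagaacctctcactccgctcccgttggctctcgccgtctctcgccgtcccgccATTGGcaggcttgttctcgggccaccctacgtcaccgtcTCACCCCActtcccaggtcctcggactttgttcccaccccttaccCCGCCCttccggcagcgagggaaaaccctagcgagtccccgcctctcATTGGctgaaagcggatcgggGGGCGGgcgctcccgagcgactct
Mvk: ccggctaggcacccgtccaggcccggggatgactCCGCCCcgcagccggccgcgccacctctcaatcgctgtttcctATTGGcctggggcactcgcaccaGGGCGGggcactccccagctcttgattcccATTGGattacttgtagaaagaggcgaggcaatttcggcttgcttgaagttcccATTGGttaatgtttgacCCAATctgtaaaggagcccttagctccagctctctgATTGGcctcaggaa
Idi1: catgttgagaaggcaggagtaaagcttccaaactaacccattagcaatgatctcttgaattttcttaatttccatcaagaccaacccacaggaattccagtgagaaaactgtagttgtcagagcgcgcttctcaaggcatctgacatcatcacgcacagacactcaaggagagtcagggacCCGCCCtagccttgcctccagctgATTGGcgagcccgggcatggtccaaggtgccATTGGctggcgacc
Cyp51: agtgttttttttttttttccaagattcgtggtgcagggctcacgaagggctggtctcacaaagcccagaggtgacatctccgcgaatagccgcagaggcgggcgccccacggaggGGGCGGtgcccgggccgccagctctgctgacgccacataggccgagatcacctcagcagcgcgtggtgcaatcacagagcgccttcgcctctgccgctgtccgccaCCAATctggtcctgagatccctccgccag
Nsdhl: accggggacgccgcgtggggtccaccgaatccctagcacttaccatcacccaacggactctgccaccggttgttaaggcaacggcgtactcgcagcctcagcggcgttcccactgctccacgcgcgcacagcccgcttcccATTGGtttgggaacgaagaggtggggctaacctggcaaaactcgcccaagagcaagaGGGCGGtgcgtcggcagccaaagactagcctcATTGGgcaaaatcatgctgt
The runs lie at chr13:119690101-119690350 (plus strand) for Hmgcs1, chr5:114444019-114444268 (plus) for Mvk, chr13:8885356-8885605 (plus) for Idi1, chr5:4104698-4104947 (minus) for Cyp51 and chrX:72918271-72918520 (plus) for Nsdhl. SREBP2 binds sterol regulatory elements and is known to act with NF-Y and Sp1, which bind the other boxes. In Hmgcs1 the element TCACCCCA sits at bases -137 to -130 from the start, among 3 NF-Y and 2 GC boxes. Mvk held 5 NF-Y and 2 GC boxes, and Idi1, Cyp51 and Nsdhl held 2, 1 and 2 NF-Y boxes with 1 GC box each. Other forms of the sterol regulatory element were not marked, so these promoters were not shown to lack one.

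Over the whole set, RefSeq windows (250 bases before to 50 after a start) were found for 27 of the 34 members, 36 windows in all. CCAAT occurred in 15 of the 19 windows of synthesis genes (78.9%), in 1 of 5 windows of efflux and LXR genes, and in 37.4% of all 32851 windows. GGGCGG occurred in 78.9% of the synthesis windows and in 35.7% of all windows. TCACNCCA occurred in 2 of the 19 synthesis windows, those of Hmgcs1 and Msmo1, and in 4.36% of all windows. The longer TCACCCCAC, which contains one form of TCACNCCA, occurred in Hmgcs1 alone among the members and in 0.551% of all windows. The LXR direct repeat DR4 (a repeat of AGGTCA with 4 bases between) was searched on both strands of the same windows. It was in 0 member windows and in 5 of all 32851 windows (0.0152%). At so low a share, 0 among the 36 member windows could not set the members apart from other genes. These matches describe letters within the windows and are not evidence of binding. Only the exact letters given were searched, so a window without a match was not shown to lack an element in another form.

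None of the 34 members passed the test between DT-labelled and PBS-labelled libraries. By edgeR's quasi-likelihood test (adjusted p under 0.05 over all genes) 0 were called higher, against 0.322% of all genes, and 0 lower, against 0.00441%. DESeq2, which called 1.04% of all genes higher and 0.278% lower, and limma voom, which called 0.225% higher and 0.00441% lower, also called 0 members. At an unadjusted p under 0.05, 15 of 34 members were lower in the DT-labelled libraries, against 3.98% of all genes, and 1 was higher, against 4.72%. In 5 members every DT-labelled library lay below every PBS-labelled library, against 1.73% of all genes, and in 1, Abcg1, above, against 3.33%. The fold change was negative for 30 of 34 members, against 48.6% of all genes, and the median log2 fold change was -0.37, against 0.01 for all genes tested. Without PBS-labelled replicates 1 and 2 the median of the members was -0.08, and 1 member, Cyp51, remained lower at an unadjusted p under 0.05. That fit had 0.724% of all genes lower by the same rule, and 0 members higher against 2.92% of all genes. Leaving out PBS-labelled replicate 1 or replicate 2 alone left 5 members lower by that rule, and leaving out DT-labelled replicate 1 or 4 left 7.

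**Figure D1:**
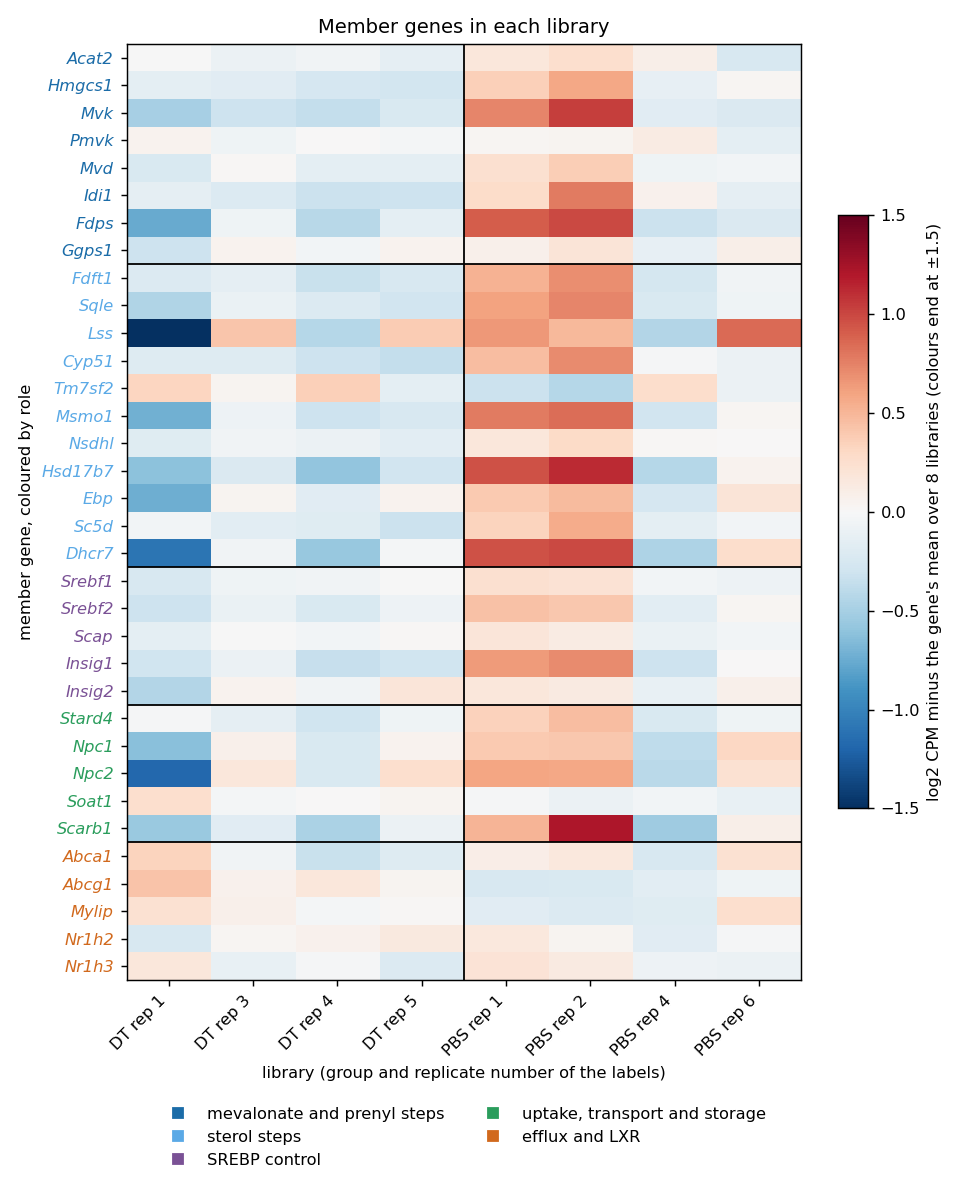
Colours give the log2 CPM of each member minus that gene's mean over the 8 libraries, with genes in rows by role and libraries in columns. Red cells for most synthesis, SREBP control and uptake genes gather in PBS-labelled replicates 1 and 2, and the darkest blue cells, for Lss, Npc2 and Dhcr7, are in DT-labelled replicate 1.

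Many members spread widely between libraries of the same group, as the map of members by library shows. PBS-labelled replicates 1 and 2 were the 2 highest of the 8 libraries for 23 of 34 members, and for 15 of the 19 synthesis genes. Over all genes tested they were the 2 highest for 19.9%. DT-labelled replicate 1 was the lowest library for 19 of 34 members, against 27.6% of all genes. Because the tissue is a mixture, fewer cells of a type and less RNA per cell cannot be told apart. The parts of conceptus RNA, endothelial RNA and Prl8a2-rich decidual RNA in PBS-labelled replicates 1 and 2 in these values were not tested. The parts of low decidual RNA and of the 4 high myometrial markers in DT-labelled replicate 1 were not tested either.

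**Figure D2:**
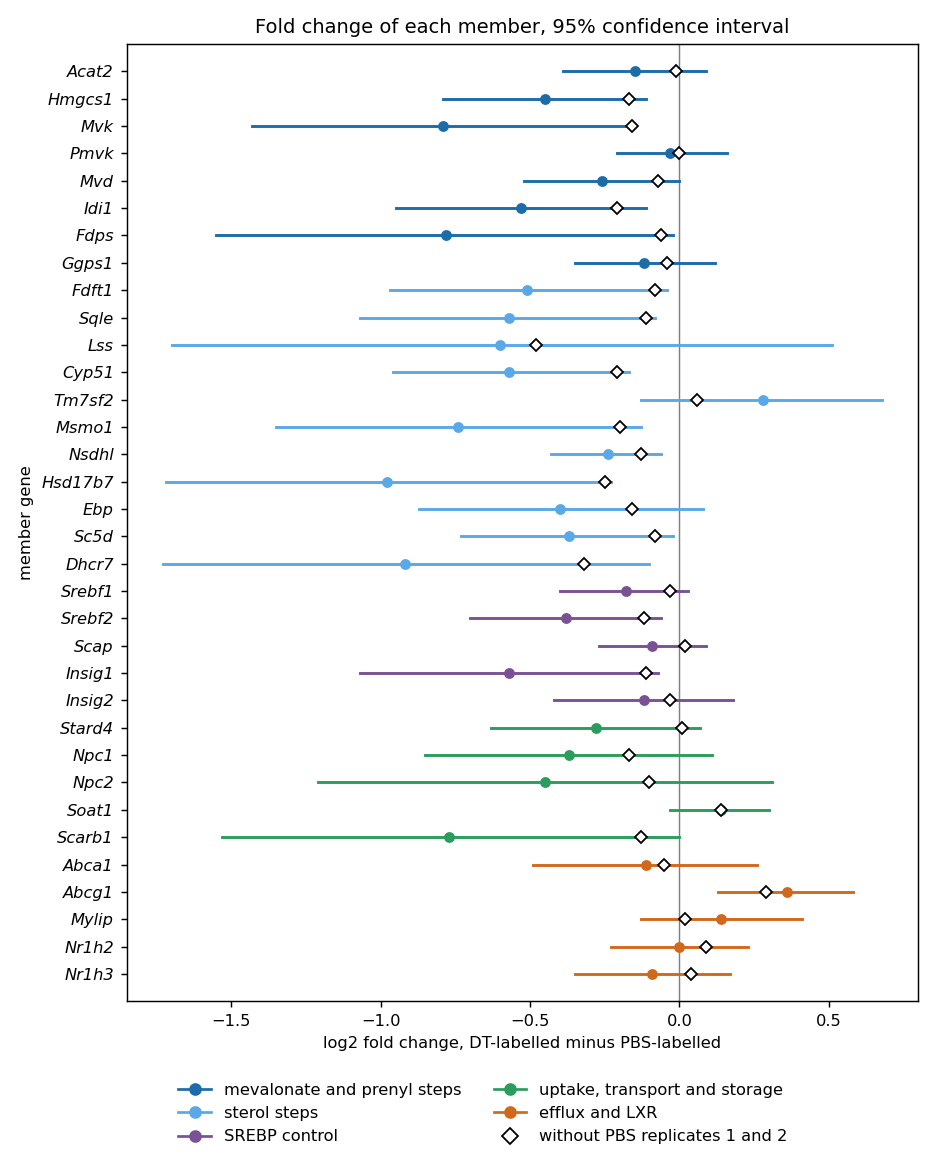
Filled points are log2 fold changes (DT-labelled minus PBS-labelled) of each member with 95% confidence intervals from edgeR, and open diamonds are the same estimate without PBS-labelled replicates 1 and 2. Hsd17b7 lies farthest left at -0.98 and Abcg1 farthest right at 0.36, and most diamonds sit closer to 0 than their points.

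The 8 genes of the mevalonate and prenyl steps had a median log2 fold change of -0.36 (-0.07 without PBS-labelled replicates 1 and 2). Of them 4 were lower at an unadjusted p under 0.05, against 3.98% of all genes, and 0 were called. Hmgcs1 makes HMG-CoA, the substrate from which mevalonate is formed. It measured 92.2, 90.8, 85.7 and 84 CPM under the DT label (replicates 1, 3, 4 and 5, in this order throughout) and 131, 153, 93.6 and 104 CPM under the PBS label (replicates 1, 2, 4 and 6). The groups did not overlap, but PBS-labelled replicate 4 was within 2 CPM of the highest DT-labelled library. The log2 fold change was -0.45 ± 0.15 (SE; edgeR adjusted p = 0.509), and -0.17 ± 0.08 without PBS-labelled replicates 1 and 2. Mvk, the kinase that phosphorylates mevalonate, measured 13.5, 15.4, 14.9 and 16.2 CPM under the DT label and 31.6, 39, 16.9 and 16.4 CPM under the PBS label. PBS-labelled replicates 4 and 6 sat at the upper edge of the DT-labelled range, and replicates 1 and 2 far above it. Its log2 fold change of -0.79 ± 0.28 (edgeR adjusted p = 0.54) was -0.16 ± 0.09 without those 2 libraries. Idi1, the isomerase that balances the isoprenoid units, measured 12.6, 12, 11.1 and 11.2 CPM under the DT label and 16.8, 23.8, 14.5 and 12.7 CPM under the PBS label. The gap between its groups was narrow, and the log2 fold change was -0.53 ± 0.18 (edgeR adjusted p = 0.54), or -0.21 ± 0.10 without those libraries. Because 23.6% of the 75-base windows of Idi1 occur in another annotated gene, its reads could not all be placed with certainty.

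The other mevalonate genes differed in how far PBS-labelled replicates 1 and 2 stood out. Fdps joins isoprenoid units into farnesyl diphosphate. It measured 11.3 and 11.9 CPM for PBS-labelled replicates 1 and 2 and 3.56 to 5.76 CPM in the other 6 libraries, and the log2 fold change was -0.78 ± 0.33 (edgeR adjusted p = 0.571). Fdps shared 23.5% of its windows with other genes. Mvd, which makes isopentenyl diphosphate, had a log2 fold change of -0.26 ± 0.11. Pmvk, the kinase between Mvk and Mvd, ranged only from 9.57 to 11.5 CPM over the 8 libraries, with a log2 fold change of -0.03 and a 95% confidence interval of -0.21 to 0.16. Ggps1, which makes a lipid used to anchor proteins to membranes and so leaves the sterol path, had -0.12 ± 0.10. Acat2, the thiolase that starts the path, had -0.15 ± 0.11 and shared 33.9% of its windows with other genes, chiefly Acat3. Leaving out PBS-labelled replicates 1 and 2 gave estimates of -0.06 for Fdps, -0.07 for Mvd, -0.04 for Ggps1 and -0.01 for Acat2.

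The 11 genes of the sterol steps had the lowest median of the 5 roles, -0.57 (-0.16 without PBS-labelled replicates 1 and 2). Of them 8 were lower at an unadjusted p under 0.05, against 3.98% of all genes, and 0 were called. Hsd17b7, the ketoreductase of sterol C4 demethylation, had the most negative log2 fold change of all members. It measured 19.1, 25.1, 19.3 and 24 CPM under the DT label and 56.8, 63.5, 21.7 and 30.3 CPM under the PBS label. PBS-labelled replicate 4 lay inside the DT-labelled range, so the groups overlapped. The log2 fold change was -0.98 ± 0.33 (edgeR adjusted p = 0.521). Its 95% confidence interval ran from -1.72 to -0.23, and it was -0.25 ± 0.18 without PBS-labelled replicates 1 and 2. Cyp51, the lanosterol demethylase, measured 46.2, 46.5, 42.6 and 41.3 CPM under the DT label and 72.8, 86.5, 52.5 and 49.7 CPM under the PBS label. Every PBS-labelled library was above every DT-labelled one, replicates 4 and 6 by the least. Its log2 fold change was -0.57 ± 0.17 (edgeR adjusted p = 0.475) with all libraries, and -0.21 ± 0.08 (unadjusted p = 0.0321, adjusted p = 1) without PBS-labelled replicates 1 and 2. Nsdhl, the decarboxylating dehydrogenase that precedes Hsd17b7 in C4 demethylation, measured 17.6, 19.2, 18.7 and 17.8 CPM under the DT label and 22.5, 24.4, 20.1 and 20 CPM under the PBS label. Its groups did not overlap and its difference was small, and the log2 fold change was -0.24 ± 0.08 (edgeR adjusted p = 0.509), or -0.13 ± 0.07 without those 2 libraries.

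**Figure D3:**
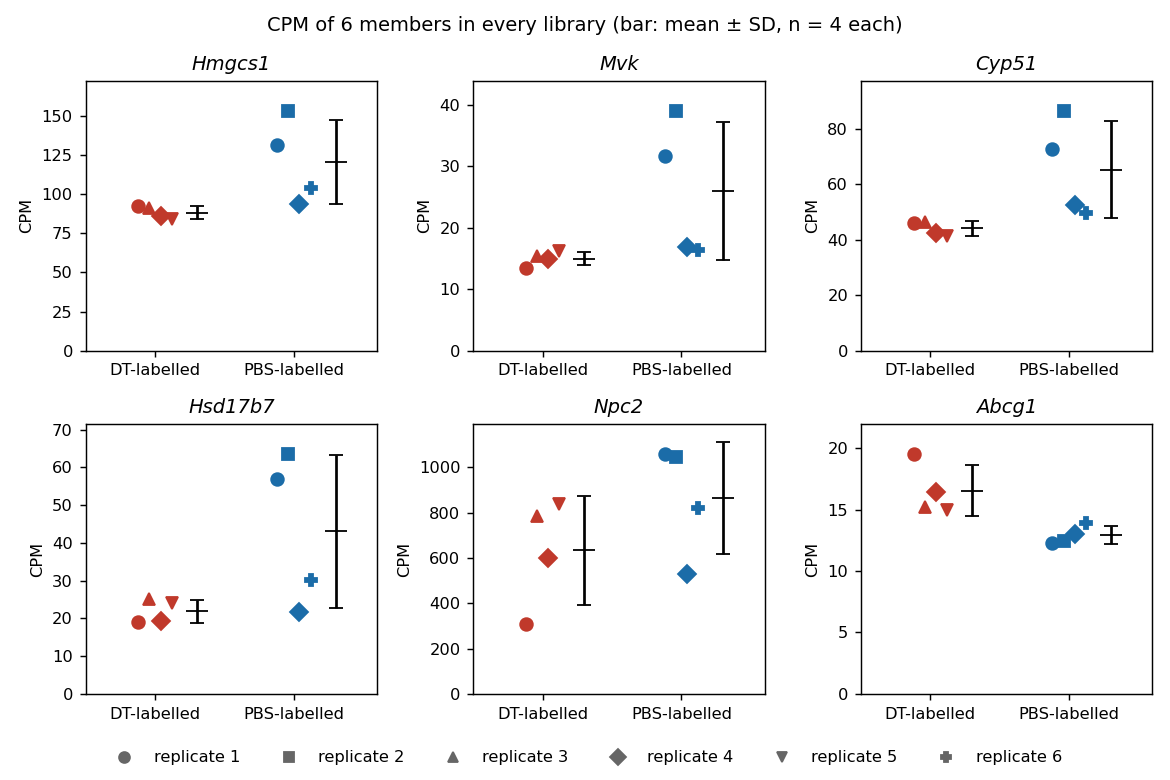
Points give the CPM of 6 members in each library, with symbols for replicate numbers and bars for the mean ± SD of 4 libraries. For Hmgcs1, Mvk, Cyp51 and Hsd17b7 the PBS-labelled spread comes from replicates 1 and 2, for Npc2 the DT-labelled spread comes from replicate 1, and for Abcg1 the groups are apart.

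PBS-labelled replicates 1 and 2 were the 2 highest libraries for 9 of the 11 sterol genes, against 19.9% of all genes. DT-labelled replicate 1 was the lowest for 7, against 27.6%. Msmo1, the C4 methyl oxidase, measured 97.5 and 102 CPM for PBS-labelled replicates 1 and 2 and 34.5 to 58 CPM elsewhere, and the log2 fold change was -0.74 ± 0.27 (edgeR adjusted p = 0.544). Sqle, the squalene epoxidase and a rate-limiting enzyme, measured 88.5 and 97.4 CPM there and 42.8 to 55.7 CPM elsewhere, with -0.57 ± 0.22. Fdft1, squalene synthase, measured 42.9 and 48.5 CPM there and 23.8 to 28.9 CPM elsewhere, with -0.51 ± 0.20 and 21.8% of its windows shared with other genes. Sc5d, the lathosterol desaturase, had a log2 fold change of -0.37 ± 0.16. With PBS-labelled replicates 1 and 2 left out, the estimates were -0.20 for Msmo1, -0.11 for Sqle, -0.08 for Fdft1 and -0.08 for Sc5d. DT-labelled replicate 1 was the lowest library for Dhcr7, Ebp and Lss, as it was for Msmo1 and Sqle. Dhcr7, which makes cholesterol from its last precursor, measured 23.2, 47.8, 33.5 and 48.6 CPM under the DT label and 95.8, 98, 35.8 and 59.2 CPM under the PBS label, and the log2 fold change was -0.92 ± 0.36 (edgeR adjusted p = 0.558). Ebp, the sterol isomerase, ranged from 23.6 CPM in DT-labelled replicate 1 to 54.4 CPM in PBS-labelled replicate 2, with -0.40 ± 0.21. Lss, which closes squalene epoxide to lanosterol, had the widest range of all members, 6.71-fold. It measured 27.8, 139, 77.2 and 135 CPM under the DT label and 163, 146, 76.8 and 187 CPM under the PBS label, and its log2 fold change of -0.60 ± 0.48 (edgeR adjusted p = 0.624) lay within that spread. The sum of decidual markers and 2 of its 5 members, Prl8a2 and Hand2, were lowest in the same 2 libraries as Lss. These were DT-labelled replicate 1 and PBS-labelled replicate 4, while Bmp2 was highest in PBS-labelled replicate 4. The endothelial sum (605 and 616 CPM, against 692 to 1415 CPM elsewhere) and the yolk sac and trophoblast sums were also lowest in these 2 libraries. The myometrial sum was highest there (4154 and 4376 CPM). The part of these cell types in the Lss values was not tested. The estimates without PBS-labelled replicates 1 and 2 were -0.32 ± 0.34 for Dhcr7, -0.16 ± 0.24 for Ebp and -0.48 ± 0.66 for Lss. Tm7sf2, a sterol C14 reductase, went the other way. It was lowest in PBS-labelled replicates 1 and 2 (7.13 and 6.62 CPM, against 8.02 to 11.4 CPM elsewhere), and the log2 fold change was 0.28 ± 0.18 (edgeR adjusted p = 0.581), or 0.06 ± 0.18 without those 2 libraries.

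Of the 5 SREBP control genes, 0 were called and 2 were lower at an unadjusted p under 0.05, against 3.98% of all genes. Their median log2 fold change was -0.18 (-0.03 without PBS-labelled replicates 1 and 2). Insig1, which retains SCAP and is itself an SREBP target, measured 38.8, 44.6, 37.3 and 38.8 CPM under the DT label and 73.8, 77.6, 38.3 and 47.6 CPM under the PBS label. PBS-labelled replicate 4 lay among the DT-labelled libraries, and the log2 fold change was -0.57 ± 0.22 (edgeR adjusted p = 0.557). Insig2, the other retention protein, ranged from 30.3 to 46.6 CPM with overlapping groups and a log2 fold change of -0.12 ± 0.13. Srebf2, which encodes SREBP2, measured 116, 134, 123 and 136 CPM under the DT label and 195, 190, 129 and 147 CPM under the PBS label. Replicates 1 and 2 were again the highest, and the log2 fold change was -0.38 ± 0.14 (edgeR adjusted p = 0.553). Srebf1, whose protein favours fatty acid synthesis and which is also an LXR target, measured 61.6, 69.6, 69.7 and 72.4 CPM under the DT label and 86, 84.5, 70.6 and 69 CPM under the PBS label. The groups overlapped, and the log2 fold change was -0.18 ± 0.09 (edgeR adjusted p = 0.571). Scap, the escort, had -0.09 ± 0.08. Leaving out PBS-labelled replicates 1 and 2 gave estimates of -0.11 for Insig1, -0.03 for Insig2, -0.12 for Srebf2, -0.03 for Srebf1 and 0.02 for Scap.

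Of the 5 genes of uptake, transport and storage, 0 were called and 1 was lower at an unadjusted p under 0.05, against 3.98% of all genes. Their median log2 fold change was -0.37 (-0.10 without PBS-labelled replicates 1 and 2). Scarb1, the receptor that takes cholesteryl esters from high-density lipoprotein, measured 110, 144, 117 and 153 CPM under the DT label and 231, 377, 112 and 173 CPM under the PBS label. PBS-labelled replicate 2 was the highest by far, replicate 1 came next, and replicate 4 was near the lowest. The log2 fold change was -0.77 ± 0.33 (edgeR adjusted p = 0.571), and -0.13 ± 0.22 without PBS-labelled replicates 1 and 2. Stard4, a soluble sterol carrier and SREBP2 target, measured 50.6, 46.9, 41.8 and 49.2 CPM under the DT label and 65.1, 70.9, 44 and 49.3 CPM under the PBS label, and the log2 fold change was -0.28 ± 0.15 (edgeR adjusted p = 0.571). It was 0.01 ± 0.10 without those 2 libraries.

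Npc1 and Npc2, the membrane and soluble proteins that move cholesterol out of lysosomes, were also lowest in DT-labelled replicate 1. Npc2 measured 310, 787, 598 and 838 CPM under the DT label and 1058, 1046, 530 and 819 CPM under the PBS label. DT-labelled replicate 1 and PBS-labelled replicate 4 were the lowest of their groups, as for Lss, and the log2 fold change was -0.45 ± 0.33 (edgeR adjusted p = 0.609). Npc1 ranged from 58.9 CPM in DT-labelled replicate 1 to 120 CPM in PBS-labelled replicate 2, with -0.37 ± 0.21. With PBS-labelled replicates 1 and 2 left out, the estimates were -0.10 ± 0.41 for Npc2 and -0.17 ± 0.26 for Npc1. Soat1, which esterifies cholesterol for storage, measured 104, 85.6, 88.2 and 89.8 CPM under the DT label and 86.1, 82.2, 85.1 and 80.9 CPM under the PBS label. The groups overlapped by 1 library, and the log2 fold change was 0.14 ± 0.07 (edgeR adjusted p = 0.571), and 0.14 ± 0.10 without those libraries.

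Among the 5 efflux and LXR genes 3 log2 fold changes were negative and 2 positive. Their median was 0.00 (0.04 without PBS-labelled replicates 1 and 2), with 0 called. By unadjusted p under 0.05, 1 was higher, against 4.72% of all genes, and 0 were lower, against 3.98%. Abcg1, which exports cholesterol to high-density lipoprotein, measured 19.5, 15.2, 16.4 and 15 CPM under the DT label and 12.3, 12.4, 13 and 13.9 CPM under the PBS label. Every DT-labelled library was above every PBS-labelled one, replicate 1 the most. Its log2 fold change of 0.36 ± 0.10 had a 95% confidence interval of 0.13 to 0.58 and did not pass (edgeR adjusted p = 0.391, DESeq2 adjusted p = 0.0941). Without PBS-labelled replicates 1 and 2 it was 0.29 ± 0.13 (unadjusted p = 0.0631). Macrophages are known to express Abcg1, and the 9 macrophage markers summed to 504 to 559 CPM under the DT label and 402 to 469 CPM under the PBS label. Of these markers edgeR called 2 higher, C1qa and C1qb (adjusted p = 0.0353 and 0.0491), against 0.322% of all genes. Without PBS-labelled replicates 1 and 2 edgeR called 0 of all genes higher, so neither passed (adjusted p = 0.375 for each). The log2 fold changes of C1qa and C1qb were 0.75 and 0.70 with all libraries, and 0.81 and 0.79 without those 2. The log2 fold change was positive for 7 of the 9 and negative for Cd68 (-0.54) and Mertk (-0.04). Their part in the Abcg1 value was not tested.

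Abca1, the exporter to lipid-poor apolipoproteins, ranged from 152 CPM in DT-labelled replicate 4 to 243 CPM in DT-labelled replicate 1, with the PBS-labelled libraries between (163 to 225 CPM) and the log2 fold change being -0.11 ± 0.16 (edgeR adjusted p = 0.766). Its sign turned when libraries were scaled by total counts alone (0.02). Mylip, an LXR-induced ubiquitin ligase that removes lipoprotein receptors, measured 21.4, 19.2, 17.9 and 18.4 CPM under the DT label and 16.2, 15.8, 16.1 and 21.7 CPM under the PBS label. Without PBS-labelled replicate 6 the groups would be apart, and with it the log2 fold change was 0.14 ± 0.12 (edgeR adjusted p = 0.633). Nr1h3, which encodes LXR alpha, measured 9.94, 8.19, 8.73 and 7.66 CPM under the DT label and 10.2, 9.72, 8.41 and 8.3 CPM under the PBS label, with overlapping groups and the log2 fold change being -0.09 ± 0.11 (edgeR adjusted p = 0.745). Nr1h2, which encodes LXR beta, ranged from 50.7 to 66.7 CPM, and its 95% confidence interval for the log2 fold change was -0.23 to 0.23. The estimates without PBS-labelled replicates 1 and 2 were -0.05 for Abca1, 0.02 for Mylip, 0.04 for Nr1h3 and 0.09 for Nr1h2.

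**Figure D4:**
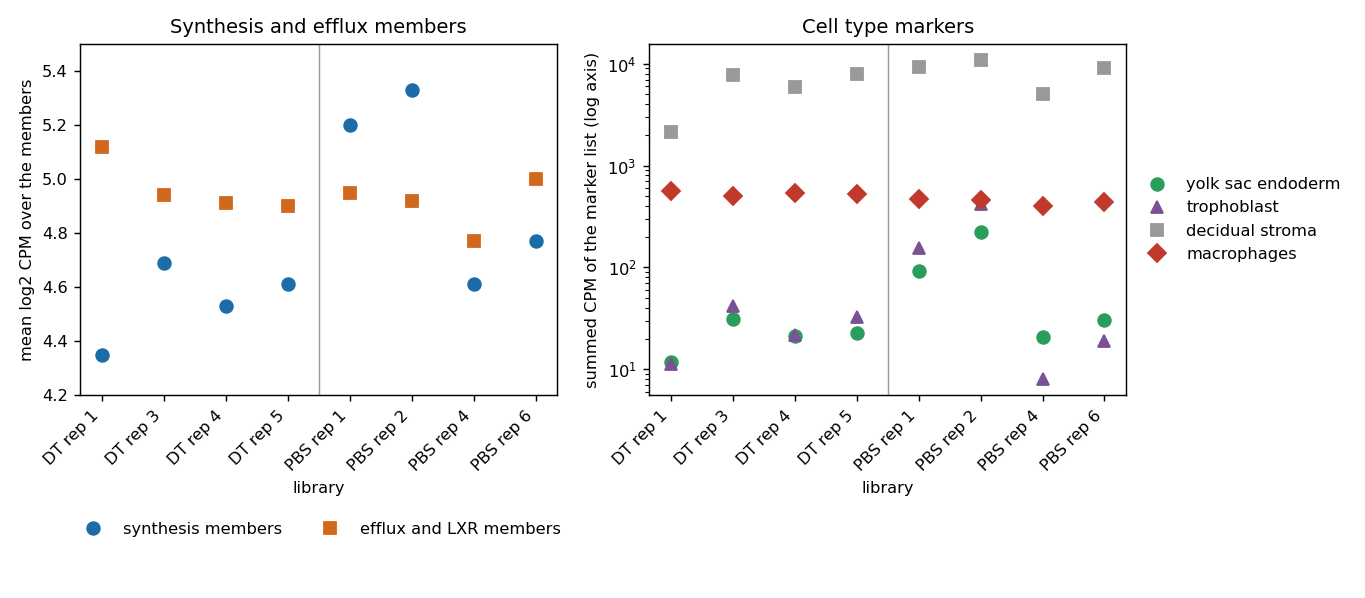
Left, the mean log2 CPM of the 19 synthesis members and of the 5 efflux and LXR members in each library. Right, the summed CPM of 4 marker lists on a log axis, where PBS-labelled replicates 1 and 2 are highest for synthesis and for the yolk sac and trophoblast markers.

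Set against each other in every library, synthesis and efflux genes differed in how they varied, and this is given as a description with no test. The mean log2 CPM of the 19 synthesis genes was 4.35, 4.69, 4.53 and 4.61 under the DT label and 5.20, 5.33, 4.61 and 4.77 under the PBS label. The mean of the 5 efflux and LXR genes was 5.12, 4.94, 4.91 and 4.90 under the DT label and 4.95, 4.92, 4.77 and 5.0 under the PBS label. Synthesis minus efflux was -0.77, -0.25, -0.38 and -0.29 under the DT label, and 0.25, 0.41, -0.16 and -0.23 under the PBS label. PBS-labelled replicates 1 and 2 were the only libraries above 0, and replicates 4 and 6 lay just above the DT-labelled range. The group means differed by -0.49 log2 units (DT minus PBS; -0.42 ± 0.24 and 0.07 ± 0.31, SD, n = 4 each). Without PBS-labelled replicates 1 and 2 the difference was -0.23.

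**Figure D5:**
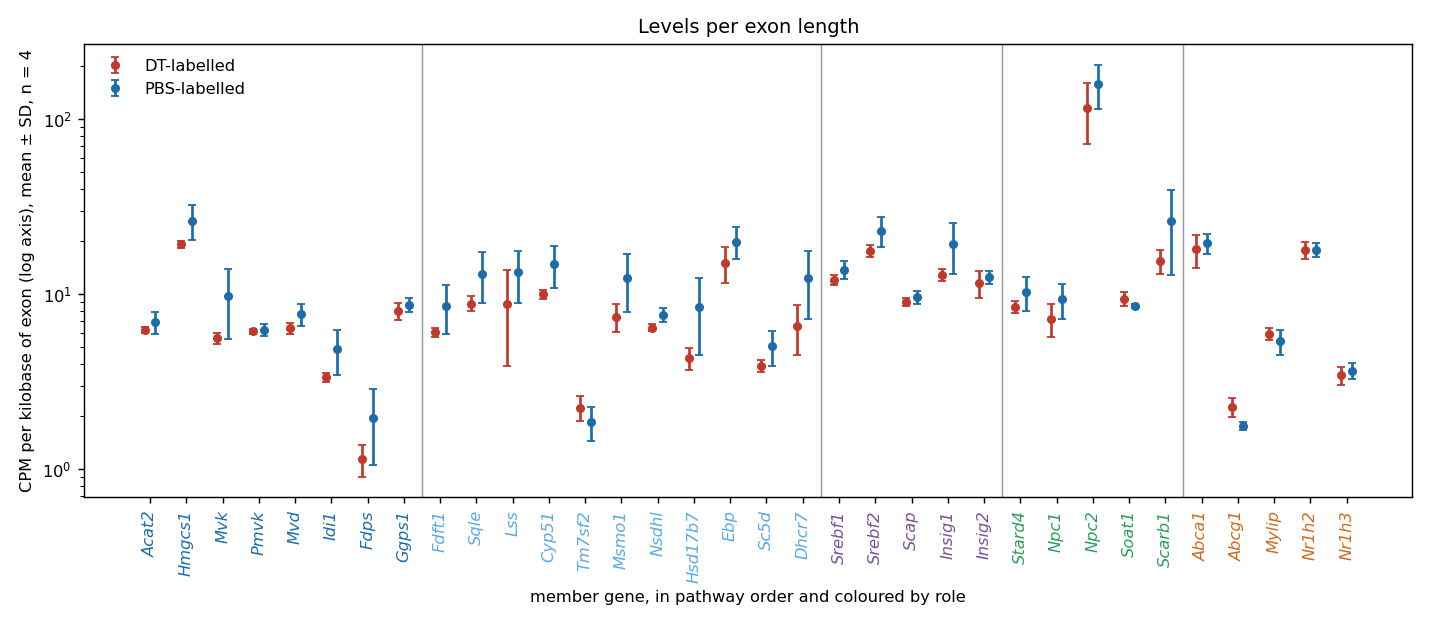
Points are the mean CPM per kilobase of exon in 4 libraries of each group on a log axis, with SD bars, for the 34 members in pathway order. Npc2 is the highest in both groups, while Fdps, Tm7sf2 and Abcg1 are the lowest.

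Between genes, levels were compared per kilobase of exon over all annotated isoforms. In the PBS-labelled libraries Npc2 was the highest at 159 ± 45.5 CPM per kilobase (SD, n = 4). Next came Hmgcs1 at 26.3 ± 5.89, Scarb1 at 26.2 ± 13.3 and Srebf2 at 23 ± 4.5, which did not differ beyond their spread. The lowest were Abcg1 at 1.77 ± 0.098, Tm7sf2 at 1.86 ± 0.41 and Fdps at 1.97 ± 0.909, also within their spread of each other. Nr1h2 at 17.9 ± 1.66 stood above Nr1h3 at 3.64 ± 0.384, and Abca1 at 19.5 ± 2.65 above Abcg1. In the DT-labelled libraries Npc2 was again the highest at 116 ± 43.9, followed by Hmgcs1 at 19.2 ± 0.86, Abca1 at 18 ± 3.83 and Nr1h2 at 17.9 ± 1.98. Fdps was the lowest there at 1.14 ± 0.235. Because 23.5% of its windows occur in other genes, the rank of Fdps in either group is uncertain.

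Neighbouring pathways were read from 9 lists of 77 genes, of which 74 were tested, and edgeR called 0 of them in either direction. At an unadjusted p under 0.05, 14 were lower, against 3.98% of all genes, and 1 was higher, against 4.72%. Of the 14, 4 were on the lipoprotein assembly list and 2 on the steroid hormone list. By that rule 0 of the 74 were lower without PBS-labelled replicates 1 and 2, against 0.724% of all genes in that fit. There 1, Msr1, was higher, against 2.92% of all genes. DESeq2 called Msr1 higher, against 1.04% of all genes, and Apoa4 lower, against 0.278%, while limma voom called 0. Among 7 other SREBP2 targets and accessory enzymes of synthesis the median log2 fold change was -0.34. Tmem97, a sterol-responsive membrane protein, had -0.46 ± 0.16 (edgeR adjusted p = 0.54) with 16.1% of its windows also found in another gene, and Aacs, which activates acetoacetate for lipid synthesis, had -0.34 ± 0.13. The 10 genes of the isoprenoid branches, which use the same precursors for ubiquinone, dolichol and protein prenylation, had a median of -0.03, and PBS-labelled replicates 1 and 2 were the 2 highest libraries for 0 of them. Those with the smallest p were Pggt1b, a prenyltransferase subunit (-0.15 ± 0.08), and Dhdds, of dolichol synthesis (-0.12 ± 0.09). The 13 fatty acid targets of SREBP1 had a median of -0.14, with Fads1, a fatty acid desaturase, at -0.29 ± 0.09 (edgeR adjusted p = 0.507) and Acaca, acetyl-CoA carboxylase, at -0.22 ± 0.09 with 26.8% of its windows shared. Of the 7 genes that process or turn over SREBP, 1 had every DT-labelled library below every PBS-labelled library, against 1.73% of all genes. It was Erlin1, a sterol-sensing scaffold of the endoplasmic reticulum (-0.24 ± 0.08, edgeR adjusted p = 0.515). Mbtps2, the protease of the final SREBP cleavage, had -0.08 ± 0.05 and 27.7% of its windows shared. Leaving out PBS-labelled replicates 1 and 2 gave estimates of -0.15 for Tmem97, -0.10 for Aacs, -0.08 for Pggt1b, -0.09 for Dhdds, -0.19 for Fads1, -0.14 for Acaca, -0.16 for Erlin1 and -0.10 for Mbtps2.

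Among 10 lipoprotein receptor and lysosomal lipid genes, every DT-labelled library lay above every PBS-labelled library for 1, Msr1 (against 3.33% of all genes), and below for 2, Lrp2 and Lrp8 (against 1.73%). Msr1, a macrophage scavenger receptor, measured 5.4 ± 0.908 CPM under the DT label and 3.51 ± 0.52 CPM under the PBS label (SD, n = 4 each), the log2 fold change being 0.62 ± 0.16 (edgeR adjusted p = 0.334, DESeq2 adjusted p = 0.0406). The summed macrophage markers, given beside Abcg1, did not overlap between the groups either, and their part here was not tested. Lrp2, the megalin receptor of yolk sac and other epithelia, had -1.36 ± 0.44 (edgeR adjusted p = 0.502) and measured 18 and 23.2 CPM for PBS-labelled replicates 1 and 2 against 3.83 to 6.6 CPM elsewhere. Lrp8, a receptor of the same family, had -0.33 ± 0.10 (edgeR adjusted p = 0.457). With PBS-labelled replicates 1 and 2 left out, the estimates were 0.46 for Msr1, -0.32 for Lrp2 and -0.26 for Lrp8. The lists with the most negative medians were those of lipoprotein assembly, -2.66 over 5 tested genes, and of steroid hormone synthesis, -0.79 over 5. These medians were -0.33 and 0.15 without PBS-labelled replicates 1 and 2. Apob, the structural protein of lipoproteins that yolk sac endoderm secretes, measured 24.3 and 56.4 CPM for PBS-labelled replicates 1 and 2 and 1.46 to 8.32 CPM elsewhere (log2 fold change -2.66 ± 0.85, edgeR adjusted p = 0.502, or -0.71 ± 0.60 without those 2 libraries). Apoa4, another apolipoprotein, had -4.10 ± 1.12 (edgeR adjusted p = 0.391, DESeq2 adjusted p = 0.0111) with 56.1% of its windows shared, and -1.11 without those 2 libraries. Star, which carries cholesterol into mitochondria for steroid synthesis, measured 62.9 and 226 CPM in those libraries and 12.6 to 15.4 CPM in the other 6, and the log2 fold change was -2.40 ± 0.87 (edgeR adjusted p = 0.549), and it was 0.15 without them. Fdx1, the electron carrier of the side-chain cleavage enzyme, had -0.79 ± 0.31, and -0.11 ± 0.08 without them. Apob, Apoa1 and Apoa4 also stand among the yolk sac markers, so the lipoprotein assembly list is not separate from those markers.

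Positive medians were found for the list of other efflux and LXR genes and for the oxysterol list. The 5 efflux and LXR members themselves had a median of 0.00. The 9 tested genes of other efflux and LXR functions had a median log2 fold change of 0.15, with Smpdl3a, an LXR-induced phosphodiesterase, at 0.33 ± 0.17 and Rxra, a partner receptor of LXR, at 0.37 ± 0.20 (edgeR adjusted p = 0.571 for each). DT-labelled replicate 1 was the highest library for 5 of these 9 genes, against 27.2% of all genes. The 8 oxysterol genes had a median of 0.14, with Cyp46a1, the cholesterol 24-hydroxylase, at 0.64 ± 0.28 (edgeR adjusted p = 0.571) and Sult2b1, an oxysterol sulfotransferase, at -0.36 ± 0.22. Without PBS-labelled replicates 1 and 2 the medians of these 2 lists were 0.05 and -0.02. The estimates were then 0.11 for Smpdl3a, 0.25 for Rxra, 0.21 for Cyp46a1 and -0.08 for Sult2b1.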

How the data were processed

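RNA of whole uteri with conceptuses was sequenced on an Illumina NextSeq as paired reads after Kapa mRNA hyperprep library preparation, per the labels' protocols. Raw counts, not normalized, were deposited for each Ensembl gene, 1 table per library and 1 for the series. The submitters' processing notes name Trimmomatic, HISAT2, featureCounts, SAMtools, DESeq2 and build GRCm38. Versions, annotation, strand setting and treatment of multi-mapping reads were not given in these sources, so overlapping and near-identical genes could not be told apart. The tables held 49585 genes and differed in 0 cells. Totals ranged from 94794512 to 109847604 counts. No library pair agreed within sampling noise (smallest chi-square per degree of freedom 26.32). The labels' protocol gives 4 females per treatment, and the 4 libraries of a group were taken as 1 per female.

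IDs were matched to GENCODE M21 (49326 of 49585). Counts were fitted in R 4.3.3 with edgeR 4.0.16 (filterByExpr with minimum count 10 and total 15, TMM, robust quasi-likelihood test, two-sided, treatment as the only term), and p-values were adjusted by Benjamini-Hochberg over 22693 genes. Alternatives were DESeq2 1.42.0, limma voom 3.58.1, other scaling and filters, a replicate block and leaving out libraries. The fit was tested on simulated data. The share of 75-base windows of a gene's transcripts that occur in another gene was computed in Python 3.11.15. It is printed from 10% upward for members, named neighbouring pathway genes and Foxp3. Log2 means of members used no pseudocount. Members are all named, with every library's value where groups did not overlap and for the 3 smallest unadjusted p in each of 5 roles. Neighbouring pathway genes are named where groups did not overlap and for the 2 smallest p in each list. Members, roles and lists were chosen with earlier results of these data known. Promoter sequences are from RefSeq, build GRCm38.p6. The motif letters and the library descriptions were chosen after the data were seen.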

Additional observations from a re-analysis of the deposited data

Results flagged for a closer look

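In 3 of 106 groups of 4 libraries, over 53 named genes, the highest or lowest library stood far from the others by Dixon's ratio of its gap to the group's range. Chance alone flags about 1 in 20 groups. Npc1 was low in PBS-labelled replicate 4 (ratio 0.867), at 69.9 CPM against 113 to 120 CPM in the other 3. Mylip was high in PBS-labelled replicate 6 (ratio 0.929), at 21.7 CPM against 15.8 to 16.2 CPM. Rxra was high in PBS-labelled replicate 4 (ratio 0.841), at 70.7 CPM against 52.1 to 55.1 CPM.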

How the results depend on the processing

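Under all 16 alternatives 0 members were called, and the sign was kept in 828 of 847 combinations of a named gene and a setting. The count of members lower at an unadjusted p under 0.05 (15) ranged from 5 to 19 when 1 library was left out, with 5 without PBS-labelled replicate 1 or 2, 7 without DT-labelled replicate 1 or 4 and 9 without DT-labelled replicate 5, and was 1 without both and 0 with the replicate block. The higher count (1) ranged from 1 to 2 (2 without PBS-labelled replicate 4 or 6), and was 0 in both of those fits. The median of the members ranged from -0.48 to -0.25 and that of the synthesis genes from -0.60 to -0.32. Without PBS-labelled replicates 1 and 2 together they were -0.08 and -0.13. Scaling by library totals moved the median of all genes to 0.12 and that of the efflux genes to 0.11, so relative to all genes the latter hardly moved. Over all genes, 73 higher and 1 lower became 267 and 71 by DESeq2, 0 and 0 with the replicate block, and 0 to 115 and 0 to 5 when 1 library was left out (115 and 1 without DT-labelled replicate 1, 43 and 5 without PBS-labelled replicate 4, 0 and 0 without any other). It was 0 higher without PBS-labelled replicates 1 and 2, and 2 lower with library totals. DESeq2 called 1 higher and 1 lower in the pathway lists. Only replicate numbers 1 and 4 occur in both groups, and their libraries deviated with correlations of -0.491 and 0.321. The labels do not say that a shared number marks a pair, and these correlations cannot show whether it does. Libraries of unlike numbers also deviated together, such as DT-labelled replicate 1 and PBS-labelled replicate 4 (0.592). The block result is therefore not read as a paired one. Turned signs were close to 0. With library totals they were Pmvk 0.09, Scap 0.03, Abca1 0.02, Nr1h2 0.11, Nr1h3 0.05 and Mbtps2 0.03. With the block they were Abca1 0.07 and Nr1h3 0.01. Without PBS-labelled replicates 1 and 2 they were Scap 0.02, Stard4 0.01, Nr1h2 0.09, Nr1h3 0.04 and Star 0.15. Nr1h2 was 0.003 without a filter on counts and 0.01 with at least 1 CPM in at least 4 libraries. When 1 library was left out, Nr1h2 ranged from -0.05 to 0.07 and Pmvk from -0.07 to 0.01. The cause of these changes was not tested.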
